A study of Mus musculus with 17 samples.

Results

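A set of genes used as lymphocyte markers were followed in cultures of mouse peritoneal macrophages: Cd3e, Cd3d, Cd3g, Thy1, Zap70, Cd79a, Cd79b, Ms4a1, Il7r and Klrk1. They are 10 of the 21683 gene rows of the expression table and were taken by symbol. They were put together because their RNA was measurable in these cultures, and Klrk1 because its level was higher with Tat, so the genes were selected on the levels with and without Tat, which carry no test below. All mice were male C57BL/6 animals, 8 weeks old, with loxP-flanked IKKβ alleles. Cells were collected after an intraperitoneal injection of 1 mL of 3% thioglycollate (3 days earlier per the labels, 4 days in the study's methods), left to attach for 4 hours and treated for 12 hours.

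The 17 RNA-Seq libraries form 3 groups. F/F PBS holds 6 libraries of IKKβF/F cells given PBS, and F/F Tat holds 6 libraries of the same genotype given 100 nM HIV protein Tat, the viral transactivator that infected cells can release. ΔMye Tat holds 5 libraries of IKKβΔMye cells given the same dose. IKKβ is the kinase that starts canonical NF-κB signalling, and the ΔMye mice carry a heterozygous LysM-Cre knock-in, which removes it in myeloid cells and not in lymphocytes. ΔMye cells given PBS were not analysed here, so a difference between the genotypes under Tat may have been present without Tat. The study's figure legends describe the libraries as biological replicates by mouse, and p-values measure the spread between libraries.

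CD3ε, CD3δ and CD3γ (Cd3e, Cd3d, Cd3g) are the signalling chains that carry the T cell receptor to the cell surface. ZAP-70 is the kinase recruited to that receptor, and THY1 is a surface glycoprotein of mouse T cells that is also found on stromal cells. CD79A and CD79B (Cd79a, Cd79b) do the same work for the B cell receptor, and CD20 (Ms4a1) is a B cell surface protein. The α chain of the IL-7 receptor (Il7r) supports lymphocyte survival together with the common γ chain, and serves the cytokine TSLP together with the product of Crlf2. NKG2D (Klrk1) is an activating receptor of NK cells and some T cells that signals through the adaptors DAP10 (Hcst) and DAP12 (Tyrobp). Adherent peritoneal cultures consist mainly of macrophages, and the lavage they come from also contains lymphocytes.

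In GRCm38 (GENCODE M21) the 3 Cd3 genes lie together on chromosome 9: Cd3g at 44969572 to 44980431 on the minus strand, Cd3d at 44981786 to 44987339 on the plus strand and Cd3e at 44998740 to 45009627 on the minus strand. Cd3g and Cd3d start 1355 bases apart and are read away from each other. Thy1 is on the same chromosome, at 44043384 to 44048579. Klrk1 is on chromosome 6, at 129610323 to 129623864 on the minus strand. Il7r is on chromosome 15, at 9505788 to 9530176 on the minus strand. The remaining genes are Zap70 on chromosome 1 (36761798 to 36782818), Cd79a on chromosome 7 (24897381 to 24902197), Cd79b on chromosome 11 (106311341 to 106314762) and Ms4a1 on chromosome 19 (11249675 to 11266241).

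RefSeq promoter sequences (GRCm38.p6) were available for 7 of the 10 genes and not for Thy1, Cd79b or Ms4a1. The 250 bases before the start site are printed for Klrk1, the gene with the largest difference between Tat and PBS among the 10, and for the head-to-head pair Cd3d and Cd3g, which differed in the same direction between the genotypes. Capitals mark matches, on either strand, to the letters GAAANNGAA (an IRF-type element), TGANTCA (AP-1), TGTGGT (RUNX) and AGGAAG (ETS). The ETS match at the 3′ end of the Cd3d stretch runs 1 base past it.
Klrk1, chr6:129623865-129624114, minus strand: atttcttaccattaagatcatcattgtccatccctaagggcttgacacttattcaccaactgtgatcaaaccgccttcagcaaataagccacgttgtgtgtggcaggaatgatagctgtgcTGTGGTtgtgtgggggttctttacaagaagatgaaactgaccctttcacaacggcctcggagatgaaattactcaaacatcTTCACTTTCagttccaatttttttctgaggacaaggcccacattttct
Cd3d, chr9:44981536-44981785, plus strand: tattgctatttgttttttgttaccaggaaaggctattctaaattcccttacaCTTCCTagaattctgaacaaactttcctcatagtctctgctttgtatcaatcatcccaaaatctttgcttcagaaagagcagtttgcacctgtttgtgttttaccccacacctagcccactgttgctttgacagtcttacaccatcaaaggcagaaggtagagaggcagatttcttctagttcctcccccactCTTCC
Cd3g, chr9:44980432-44980681, minus strand: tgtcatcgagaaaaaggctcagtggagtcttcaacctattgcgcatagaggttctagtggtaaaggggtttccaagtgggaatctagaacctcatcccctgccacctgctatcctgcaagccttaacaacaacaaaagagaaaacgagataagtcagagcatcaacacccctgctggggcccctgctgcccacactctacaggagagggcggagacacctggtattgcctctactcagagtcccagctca

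In the full windows, which add 50 bases after the start site, Klrk1 held an IRF-type match at position -48, a RUNX match at position -129 and an AP-1 match at position 18, counting the start site as position 1. Of 32851 promoters with the same 300-base window, 8.56% held the IRF-type letters, 7.81% the AP-1 letters, 16.8% the RUNX letters and 35.4% the ETS letters. Cd3d held ETS matches at positions -198 and -5, Cd3e held them at positions -224 and -17, and Cd3g held none of these letters. Il7r held an ETS match at position -48 and a RUNX match at position 4. The NF-κB consensus was in none of these windows of the 7 genes and in 8.46% of all promoters. These are letter matches and not measured binding.

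Levels are given as TPM, the share of a library's transcripts after allowing for gene length, so that genes can be set beside each other. The listed genes of each library summed to between 889318 and 903576 TPM, and sequencing depth is unknown because TPM hold no read counts. Between 10228 and 10378 genes reached 1 TPM in the F/F PBS libraries, against 9260 to 9405 in F/F Tat and 9449 to 9698 in ΔMye Tat. The median log2 difference over all 10451 genes tested was -0.65 for F/F Tat minus F/F PBS and 0.22 for ΔMye Tat minus F/F Tat. After scaling the libraries by the median ratio of their genes these medians were -0.03 and 0.01. Scaled values are given for the results they change most. Shares of all genes tested were counted before scaling only, so counts after scaling have no such share beside them and are a description. Ikbkb, the gene of IKKβ, was at 24.5 to 30.1 TPM in F/F PBS, 21.6 to 25.4 TPM in F/F Tat and 12.8 to 19.9 TPM in ΔMye Tat. Its genotype difference under Tat (ΔMye minus F/F) was -0.51 ± 0.08 (log2, SE, limma adjusted p = 4.51e-05), with no overlap between those groups. RNA of the targeted gene was thus reduced and not absent in the ΔMye Tat libraries.

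The cultures carried macrophage markers at levels far above those of the lymphocyte genes. The 10 macrophage genes listed (among them Lyz2, Cd68, Csf1r and Cd14) summed to 26055 to 27088 TPM in F/F PBS, 10714 to 11317 TPM in F/F Tat and 8440 to 8779 TPM in ΔMye Tat. Lyz2, which carries the LysM-Cre knock-in in ΔMye mice, made up most of that sum, at 22382 ± 463 TPM (SD, n = 6), 6993 ± 149 TPM (n = 6) and 4333 ± 178 TPM (n = 5). The 3 Cd3 genes together stood between 1.30 and 6.30 TPM over the 17 libraries. In bulk RNA such as this, fewer cells of a type and less RNA per cell cannot be told apart.

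**Figure D1:**
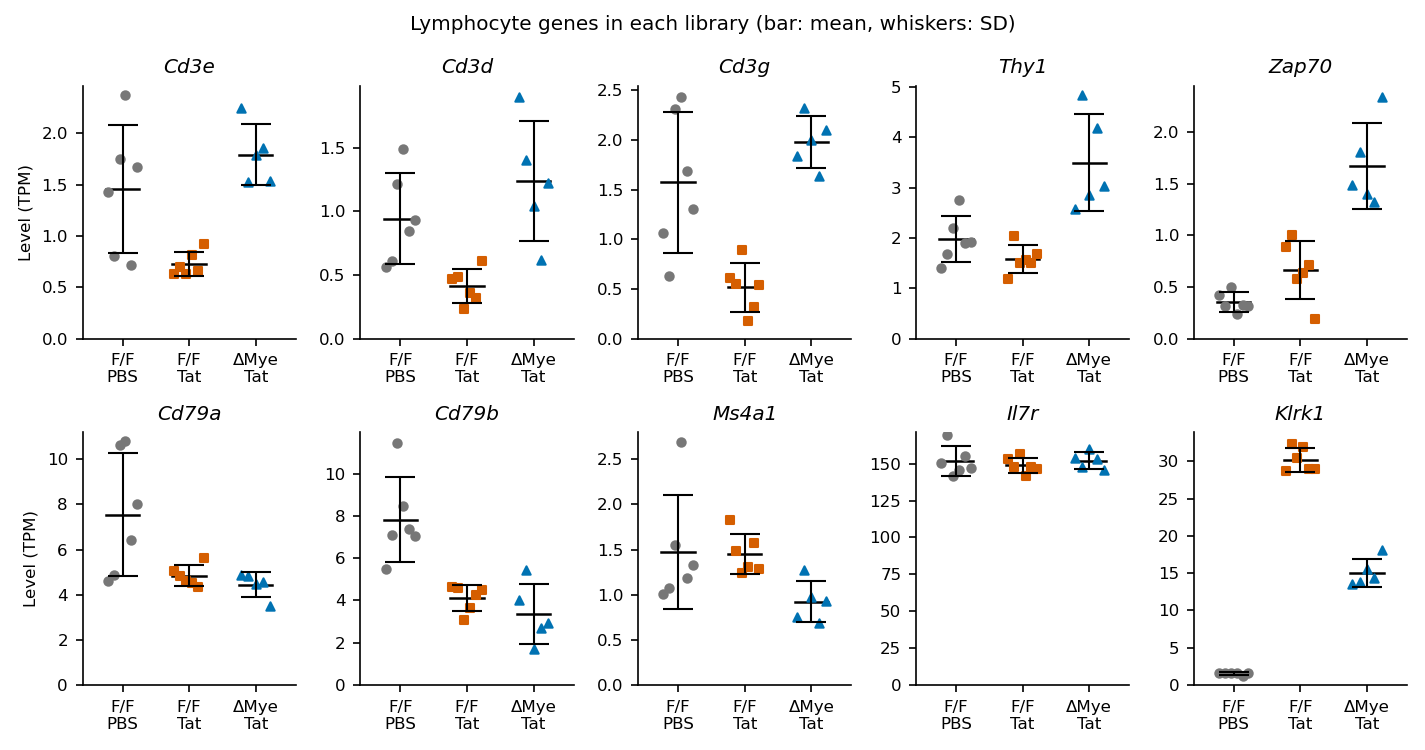
Level of each of the 10 genes (TPM, each panel with its own axis from 0) in the 17 libraries of F/F PBS, F/F Tat and ΔMye Tat cells, with the group mean as a bar and the SD as whiskers. Klrk1 stood near 1.5 TPM with PBS and at 28.6 TPM or more in all F/F Tat libraries, Il7r stayed between 142 and 170 TPM in all groups, and the Cd3 genes, Thy1 and Zap70 were highest in the ΔMye Tat means.

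The T cell receptor chains were at low levels throughout. Cd3e was at 1.43, 0.81, 1.75, 2.37, 0.71 and 1.68 TPM in F/F PBS libraries 1 to 6, at 0.63, 0.70, 0.63, 0.81, 0.66 and 0.92 TPM in F/F Tat libraries 7 to 12, and at 2.25, 1.53, 1.79, 1.86 and 1.53 TPM in ΔMye Tat libraries 19 to 23. Every ΔMye Tat library was above every F/F Tat library, while F/F PBS spanned both. The means were 1.46 ± 0.63 (SD, n = 6), 0.72 ± 0.12 (n = 6) and 1.79 ± 0.29 TPM (n = 5).

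Cd3d was at 0.56, 0.61, 1.21, 1.49, 0.84 and 0.93 TPM in F/F PBS, at 0.47, 0.49, 0.23, 0.36, 0.32 and 0.61 TPM in F/F Tat, and at 1.90, 1.40, 1.04, 0.62 and 1.23 TPM in ΔMye Tat. The lowest ΔMye Tat library was just above the highest F/F Tat library, at 0.62 against 0.61 TPM. Cd3g was at 1.06, 0.63, 2.31, 2.43, 1.69 and 1.31 TPM in F/F PBS, at 0.61, 0.55, 0.90, 0.18, 0.32 and 0.54 TPM in F/F Tat, and at 1.84, 2.32, 2.002, 1.64 and 2.10 TPM in ΔMye Tat. For Cd3g the ΔMye Tat and F/F Tat libraries were well separated, and libraries 3 and 4 of F/F PBS reached the ΔMye Tat levels.

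As a description of the choice of genes, the log2 difference (of TPM + 0.1) of F/F Tat from F/F PBS was -0.82 for Cd3e, -0.997 for Cd3d and -1.43 for Cd3g. For all 3 genes the F/F PBS and F/F Tat libraries overlapped. The median of all genes was -0.65, and after median-ratio scaling the 3 differences were -0.25, -0.46 and -0.88 against a median of -0.03. After quantile normalization Cd3e and Cd3d were on the other side of 0, at 0.37 and 0.32.

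Thy1 and Zap70, the other 2 T cell genes, had no common pattern with Tat. Thy1 was at 1.40, 1.69, 2.19, 2.75, 1.89 and 1.93 TPM in F/F PBS, at 1.18, 2.04, 1.51, 1.56, 1.498 and 1.69 TPM in F/F Tat, and at 2.59, 4.84, 2.84, 4.18 and 3.03 TPM in ΔMye Tat. Zap70 was at 0.42, 0.32, 0.50, 0.23, 0.32 and 0.32 TPM in F/F PBS, at 0.88, 1.00, 0.57, 0.63, 0.71 and 0.19 TPM in F/F Tat, and at 1.49, 1.81, 1.40, 1.32 and 2.34 TPM in ΔMye Tat. The ΔMye Tat libraries were above all F/F Tat libraries for both genes, and for Zap70 they were also above all F/F PBS libraries. The log2 difference of F/F Tat from F/F PBS was -0.29 for Thy1, which became 0.30 after scaling, and 0.67 for Zap70, which became 1.18.

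Whether loss of IKKβ in myeloid cells went with other levels of these genes under Tat was tested with limma over all 10451 genes that had at least 1 TPM in at least 5 libraries. This comparison shares the F/F Tat libraries with the one that the choice of genes rests on. At an adjusted p below 0.01, 38.8% of all genes tested were higher in ΔMye Tat and 8.87% were lower. Cd3g was higher in ΔMye Tat by 1.86 ± 0.32 (log2, SE, limma adjusted p = 6.03e-05) and Thy1 by 1.08 ± 0.18 (limma adjusted p = 5.71e-05). Cd3g was the 1 gene of the 10 also past the study's fold threshold of 3, which 0.440% of all genes tested passed as higher and 0.316% as lower, and a larger pseudocount lowered its difference to below a fold of 3. For both genes the libraries of the genotypes lay apart, and each adjusted p stayed under 0.01 when any 1 of the 17 libraries was left out.

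Cd3e, Cd3d and Zap70 passed the filter on low values only through the ΔMye Tat libraries, the group where they were highest, so that their place among the tested genes supports nothing. Cd3e reached 1 TPM in 4 F/F PBS, 0 F/F Tat and 5 ΔMye Tat libraries, Cd3d in 2, 0 and 4, and Zap70 in 0, 1 and 5. Their tests are therefore given from the fit with no filter on low values. In that fit Cd3e was higher in ΔMye Tat by 1.198 (log2, limma adjusted p = 0.000769), Cd3d by 1.35 (limma adjusted p = 0.000955) and Zap70 by 1.29 (limma adjusted p = 0.00135), with no overlap between the genotypes. With the filter and quantile normalization the adjusted p of Cd3e was 0.0118.

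**Figure D2:**
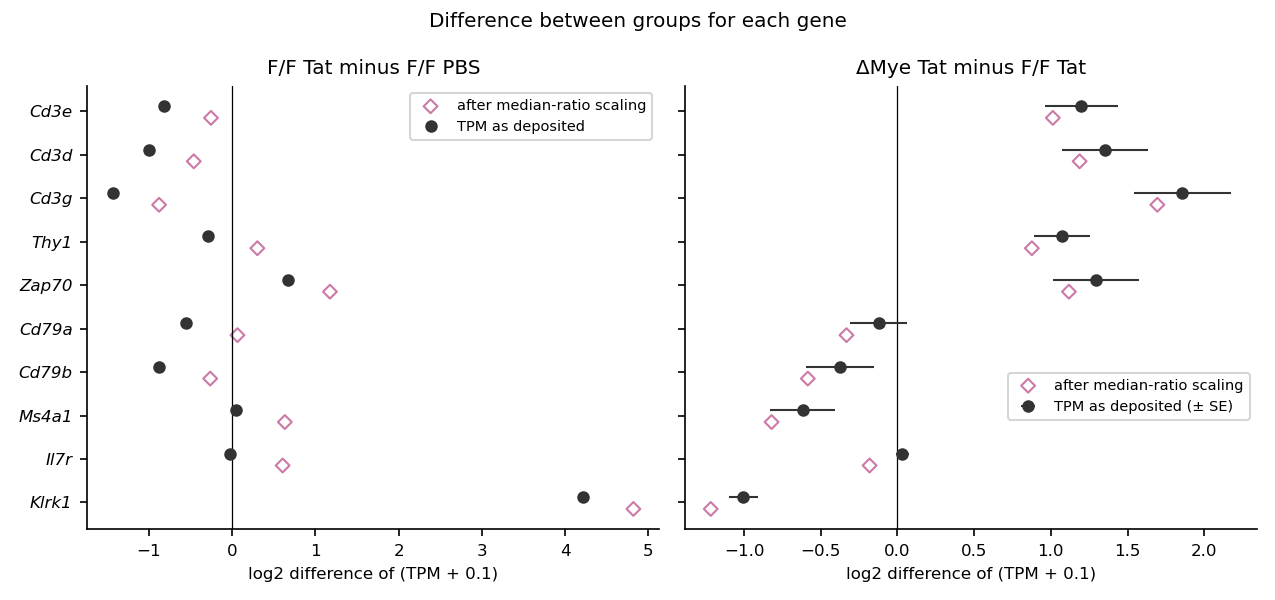
Log2 difference of (TPM + 0.1), F/F Tat minus F/F PBS (left, a description with no test) and ΔMye Tat minus F/F Tat (right, with SE) for the 10 genes, as deposited (filled) and after median-ratio scaling (open). The 5 T cell genes lie between 1.08 and 1.86 on the right before scaling, Klrk1 lies at -1.005, and scaling moved Thy1, Cd79a and Il7r across 0 on the left and Il7r on the right.

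The B cell receptor chains were compared in the same way. Cd79a was at 4.60, 4.85, 10.6, 10.8, 6.40 and 7.998 TPM in F/F PBS, at 5.05, 4.81, 4.61, 4.54, 4.35 and 5.65 TPM in F/F Tat, and at 4.87, 4.82, 4.47, 4.56 and 3.50 TPM in ΔMye Tat. The Tat groups lay within the lower end of the F/F PBS range or below it. Cd79b was at 5.50, 7.09, 11.5, 8.46, 7.38 and 7.07 TPM in F/F PBS, at 4.65, 4.60, 3.09, 3.67, 4.27 and 4.49 TPM in F/F Tat, and at 4.02, 5.46, 1.71, 2.68 and 2.95 TPM in ΔMye Tat. Both Tat groups of Cd79b lay below every F/F PBS library.

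Ms4a1 was at 1.00, 1.07, 1.55, 2.70, 1.18 and 1.33 TPM in F/F PBS, at 1.82, 1.48, 1.24, 1.30, 1.57 and 1.28 TPM in F/F Tat, and at 0.75, 1.27, 0.98, 0.69 and 0.93 TPM in ΔMye Tat. One F/F PBS library, number 4, stood above the others. Of the 10 genes, Klrk1 was the gene whose F/F Tat libraries all lay above those of F/F PBS and Cd79b the gene whose libraries all lay below. The share of all genes without such overlap was not counted. At the study's thresholds 5.21% of all genes tested were called higher and 19.4% lower with Tat, and nothing is read from the counts of the chosen genes in that contrast.

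With Tat the log2 differences in F/F cells were -0.56 for Cd79a, -0.88 for Cd79b and 0.05 for Ms4a1. After scaling they were 0.06, -0.26 and 0.63, so that the direction for Cd79a depends on the scaling. For ΔMye Tat minus F/F Tat the differences were -0.12 ± 0.19 for Cd79a (limma adjusted p = 0.585), -0.38 ± 0.22 for Cd79b (limma adjusted p = 0.154) and -0.62 ± 0.21 for Ms4a1 (limma adjusted p = 0.0184). None of the 3 passed the threshold of 0.01, and the libraries of the groups overlapped. Ms4a1 passed it after scaling, at -0.82 (limma adjusted p = 0.00434), and without F/F PBS library 4 (limma adjusted p = 0.00424).

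The Cd3 and Cd79 genes were therefore set against each other in each library. The Cd3 sum (Cd3e, Cd3d and Cd3g) averaged 3.97 ± 1.56 TPM (SD, n = 6) in F/F PBS, 1.65 ± 0.29 TPM (n = 6) in F/F Tat and 5.01 ± 0.68 TPM (n = 5) in ΔMye Tat. The Cd79 sum (Cd79a and Cd79b) averaged 15.4 ± 4.5, 8.96 ± 0.94 and 7.81 ± 1.74 TPM. The Cd79 to Cd3 ratio, which does not change with the scaling of a library, was 3.06 to 5.83 in F/F PBS, 4.39 to 6.64 in F/F Tat and 1.28 to 1.96 in ΔMye Tat. The ΔMye Tat libraries lay below both other groups in this ratio, and the F/F groups overlapped. The ratio was formed with the levels known and is given with no test.

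**Figure D3:**
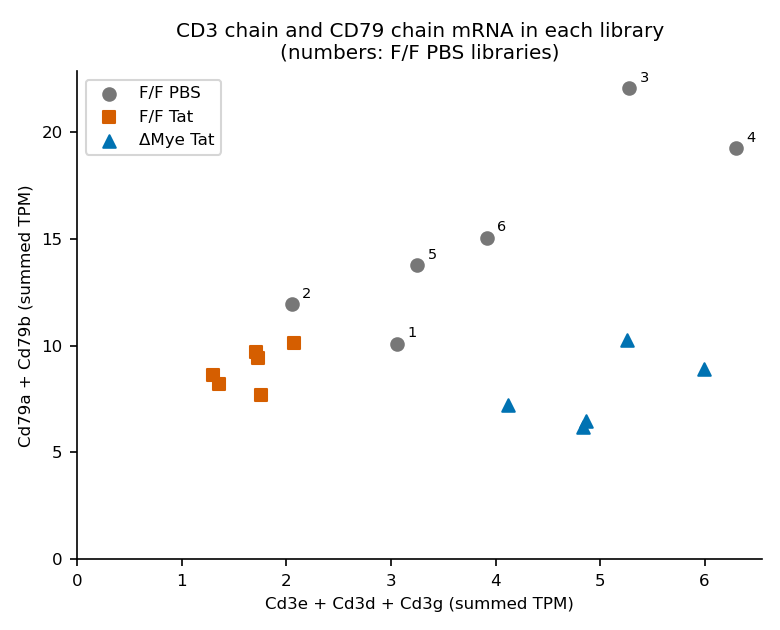
Summed level of Cd79a and Cd79b against the summed level of Cd3e, Cd3d and Cd3g (both in TPM) in each of the 17 libraries, with the F/F PBS libraries numbered. The F/F PBS libraries spread from 2.05 to 6.30 TPM in the Cd3 sum and from 10.1 to 22.1 TPM in the Cd79 sum with numbers 3 and 4 farthest out, and the ΔMye Tat libraries combine Cd3 sums of 4.12 TPM or more with Cd79 sums of 10.3 TPM or less.

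The F/F PBS libraries differed among themselves more than those of the other groups in several of these genes. Library 4 was the highest of its group for 6 of the 10 genes (Cd3e, Cd3d, Cd3g, Thy1, Cd79a and Ms4a1) and library 3 for 3 (Zap70, Cd79b and Klrk1), and library 1 was the lowest for 5. The SD of Cd3e was 42.8% of its mean in F/F PBS, against 16.1% and 16.4% in the F/F Tat and ΔMye Tat groups, and for Cd79a these values were 36.3%, 9.62% and 12.5%. Without libraries 3 and 4 the F/F PBS mean of Cd3e was 1.16 ± 0.47 TPM (SD, n = 4), that of Cd79a 5.96 ± 1.57 TPM and that of Cd79b 6.76 ± 0.85 TPM. Cd79b and Klrk1 still stood apart with Tat without them, and the other 8 genes still overlapped. Nothing is read from these counts, since the share of all genes was not counted.

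Il7r had a level unlike that of the other lymphocyte genes, and it was nearly constant. It was at 151, 170, 142, 146, 155 and 147 TPM in F/F PBS, at 153, 148, 157, 142, 148 and 146 TPM in F/F Tat, and at 154, 148, 160, 153 and 145 TPM in ΔMye Tat. All 3 groups overlapped, with means of 152 ± 10 (SD, n = 6), 149 ± 5 (n = 6) and 152 ± 6 TPM (n = 5). The ratio of Il7r to the Cd3 sum was 23.1 to 82.8 in F/F PBS, 70.7 to 114 in F/F Tat and 25.7 to 37.2 in ΔMye Tat. The Il7r level thus did not follow the Cd3 level across libraries.

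With Tat the log2 difference of Il7r in F/F cells was -0.03 as deposited and 0.61 after median-ratio scaling, which takes the fall of the median gene out. For ΔMye Tat minus F/F Tat it was 0.03 ± 0.04 (log2, SE, limma adjusted p = 0.531) as deposited and -0.18 after scaling (limma adjusted p = 0.000418). With quantile normalization it was -0.03 (limma adjusted p = 0.521). The direction of both Il7r differences is set by the scaling.

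The partners of the IL-7 receptor were abundant in the same libraries. Of 11 genes listed for this pathway 9 were tested. Crlf2, the second chain of the TSLP receptor, stood at 243 ± 16 TPM in F/F PBS (SD, n = 6), 260 ± 7 TPM in F/F Tat (n = 6) and 241 ± 10 TPM in ΔMye Tat (n = 5). Il2rg, the common γ chain, stood at 254 ± 5, 382 ± 10 and 314 ± 12 TPM, with no overlap between any of the 3 groups. It was 0.59 ± 0.03 higher with Tat (log2, SE, limma adjusted p = 6.98e-14) and 0.28 ± 0.03 lower on the log2 scale in ΔMye Tat than in F/F Tat (-0.28, limma adjusted p = 9.70e-08). The ligand genes Il7 and Tslp were below the filter.

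With Tat 4 of the 9 rose and 2 fell with adjusted p-values below 0.01, where 17% of all genes tested rose and 67.6% fell. Cish, a STAT5 target that restrains cytokine signalling, rose from 2.47 ± 0.71 to 66.5 ± 1.2 TPM (log2 difference 4.74 ± 0.13, limma adjusted p = 2.96e-17). Stat5a, the transcription factor downstream, rose by 1.99 ± 0.07 (log2, SE, limma adjusted p = 1.89e-15), and Mcl1, a survival gene, by 0.51 ± 0.03 (limma adjusted p = 2.43e-11). Bcl2, another survival gene and a known IL-7 target in T cells, fell from 3.74 ± 0.36 to 0.71 ± 0.15 TPM. Its log2 difference was -2.25 ± 0.13 (limma adjusted p = 1.97e-12). Bcl2 passed the filter only through F/F PBS, where it was high, so its tests are a description. In ΔMye Tat against F/F Tat 2 of the 9 were higher (Jak3 and Bcl2) and 1 was lower (Il2rg). Of all genes tested 38.8% were higher and 8.87% lower. After scaling neither Jak3 nor Bcl2 passed and Crlf2 was lower too. After scaling 8 of the 9 rose with Tat and 1 (Bcl2) fell, with no share of all genes counted for scaled values. The median log2 difference of the 9 was 0.12 with Tat and 0.02 between genotypes, against -0.65 and 0.22 over all genes tested, and after scaling it was 0.75 and -0.19, against -0.03 and 0.01.

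Klrk1 stood apart from the other 9 genes. It was at 1.64, 1.67, 1.67, 1.56, 1.15 and 1.56 TPM in F/F PBS, at 28.6, 32.3, 30.5, 31.9, 29.0 and 28.9 TPM in F/F Tat, and at 13.5, 13.8, 15.5, 14.3 and 18.1 TPM in ΔMye Tat. The 3 groups did not overlap. The means were 1.54 ± 0.20 (SD, n = 6), 30.2 ± 1.6 (n = 6) and 15.1 ± 1.9 TPM (n = 5), and the ratio of means to F/F PBS was 19.6 for F/F Tat and 9.77 for ΔMye Tat.

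The log2 difference of Klrk1 with Tat in F/F cells, which the choice of this gene used, was 4.21. It was 4.82 after scaling, 4.99 after quantile normalization and 3.62 with a pseudocount of 1. The genotype difference, which shares the F/F Tat libraries with the difference that chose this gene, was -1.005 ± 0.09 (log2, SE, limma adjusted p = 3.40e-08), with all 5 ΔMye Tat libraries below all 6 F/F Tat libraries. It lay between -1.22 and -0.96 over 7 other ways of processing and between -1.07 and -0.97 when single libraries were left out. Klrk1 was the 1 gene of the 10 that was lower in ΔMye Tat past the threshold of 0.01 in the deposited values, and after scaling Ms4a1 and Il7r were lower too.

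The adaptors of NKG2D were expressed in all libraries and moved the other way. Hcst was at 74.5 ± 5.1 TPM in F/F PBS (SD, n = 6), 36.5 ± 2.9 TPM in F/F Tat (n = 6) and 48.7 ± 4.5 TPM in ΔMye Tat (n = 5). Its log2 difference was -1.03 ± 0.06 with Tat (limma adjusted p = 6.34e-12) and 0.41 ± 0.07 between the genotypes (limma adjusted p = 2.70e-05). After scaling these were -0.40 and 0.20, and the genotype difference no longer passed the threshold of 0.01 (limma adjusted p = 0.0436). Tyrobp was at 2562 ± 140, 715 ± 27 and 1247 ± 41 TPM, with differences of -1.84 ± 0.04 (limma adjusted p = 6.64e-20) and 0.80 ± 0.04 (limma adjusted p = 1.60e-12). Per transcript of Klrk1 there were 39.8 to 67.5 of Hcst in F/F PBS, 1.01 to 1.34 in F/F Tat and 2.96 to 3.61 in ΔMye Tat. The ligand gene Raet1d differed by -0.05 ± 0.14 with Tat (limma adjusted p = 0.724) and by 0.80 ± 0.14 between the genotypes (limma adjusted p = 9.62e-05). After scaling Raet1d was higher with Tat, by 0.56 (limma adjusted p = 0.00120). Of the 11 genes listed as NKG2D partners and ligands 6 were tested, with 1 higher and 2 lower with Tat (2 and 2 after scaling) and 3 higher in ΔMye Tat (2 after scaling) past the threshold of 0.01. Of all genes tested 17% were higher and 67.6% lower with Tat, and 38.8% higher in ΔMye Tat. The median log2 difference of the 6 was -0.11 with Tat and 0.57 between the genotypes, and 0.48 and 0.37 after scaling.

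**Figure D4:**
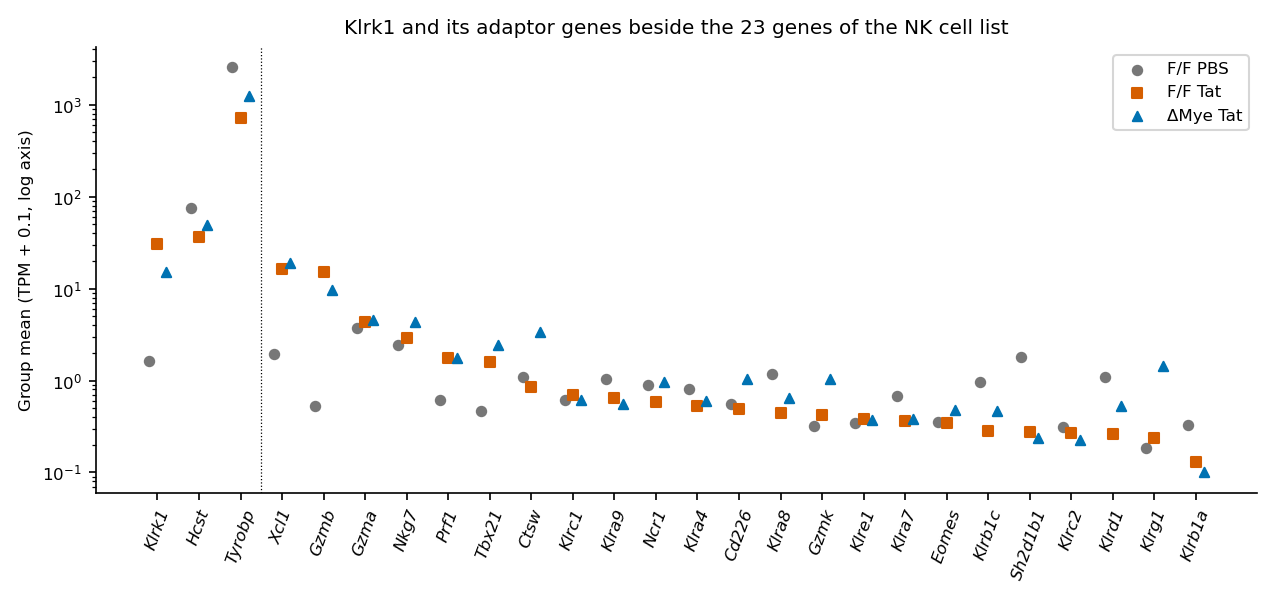
Group means (TPM + 0.1, log axis) of Klrk1 and its adaptor genes Hcst and Tyrobp, left of the dotted line, and of the 23 genes of the NK cell list, ordered by their mean in F/F Tat cells. Klrk1 rose to a mean of 30.2 TPM in F/F Tat, and the receptor genes of the NK list, such as Ncr1 and Klrd1, stood near or below 1 TPM in all 3 groups.

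Receptor genes of the NK list, and Eomes, stood at low levels beside Klrk1. Ncr1, which encodes NKp46, was at 0.52 to 1.13 TPM in F/F PBS, 0.36 to 0.63 TPM in F/F Tat and 0.31 to 1.10 TPM in ΔMye Tat, and was below the filter. Together Ncr1, Klrb1c, Klrd1, Klrc1, Klre1 and Eomes summed to 2.23 to 5.205 TPM, 1.57 to 2.48 TPM and 1.995 to 3.37 TPM. The ratio of Klrk1 to this sum was 0.30 to 0.75 in F/F PBS, 11.7 to 20.4 in F/F Tat and 4.00 to 6.94 in ΔMye Tat. These ranges do not overlap, and they follow from the Klrk1 levels already given. The genes in the sum are a part of the NK list. Klrg1, a receptor gene of that list outside the sum, averaged 0.09, 0.14 and 1.34 TPM, with ΔMye Tat above both other groups.

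Several NK list genes with effector functions rose with Tat. Gzmb, the cytotoxic protease granzyme B, rose from 0.43 ± 0.33 to 15.2 ± 2.6 TPM (log2 difference 5.08 ± 0.30, limma adjusted p = 5.04e-12). Xcl1, a chemokine of cytotoxic lymphocytes, rose from 1.84 ± 1.16 to 16.4 ± 1.8 TPM (log2 difference 3.31 ± 0.28, limma adjusted p = 1.24e-09). The 2 NK list genes with the highest F/F PBS levels, Gzma at 3.63 ± 1.23 TPM and Nkg7 at 2.31 ± 1.36 TPM, differed by 0.25 ± 0.19 (limma adjusted p = 0.201) and 0.46 ± 0.30 (limma adjusted p = 0.159). After scaling both were higher with Tat, Gzma by 0.87 (limma adjusted p = 0.000561) and Nkg7 by 1.06 (limma adjusted p = 0.00361). Of 8 NK list genes tested 4 were called higher (Gzmb, Xcl1, Tbx21 and Prf1) and 1 lower (Sh2d1b1) at the study's thresholds. Over all genes tested the shares were 5.21% and 19.4%. Xcl1 reached 1 TPM in only 4 F/F PBS libraries. Gzmb, Xcl1, Tbx21 and Prf1 passed the filter only through the Tat groups and Sh2d1b1 only through F/F PBS. Each was high in those groups, so their tests and these counts are a description. Between the genotypes Ctsw, a cathepsin of cytotoxic cells, was called higher in ΔMye Tat, at 2.12 ± 0.39 (limma adjusted p = 0.000129), where 0.440% of all genes tested were. Ctsw passed the filter only through ΔMye Tat, where it was high, so this test is a description.

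The 4 lymphocyte lists (T cell, B cell, NK cell, and innate lymphoid and IL-17-producing lymphocytes) name 93 further genes, of which 85 are in the table and 37 were tested. The other 48 were below the filter, among them the T cell genes Cd4, Cd5 and Cd6 and the B cell genes Pax5 and Ebf1. With Tat 9 of the 37 were called higher and 3 lower, where 5.21% and 19.4% of all genes were. By the adjusted p alone 14 rose and 12 fell, where 17% of all genes tested rose and 67.6% fell. After scaling 13 were called higher and 2 lower, and 21 and 5 by the adjusted p alone. The median log2 difference was 0.32, against -0.65 over all genes tested. Genes that reached the filter only in the groups where they were high had to differ, so the counts and medians of these lists are a description. Between the genotypes 2 were called higher (Cd8a and Ctsw) and 3 lower (Il17a, Il17f and Il22), where 0.440% and 0.316% of all genes were. Cd8a and Ctsw passed the filter only through ΔMye Tat and the other 3 only through F/F Tat, the groups where they were high. After scaling these counts were 1 higher and 6 lower. By the adjusted p alone 7 were higher and 9 lower, against 38.8% and 8.87% of all genes tested, and 5 and 11 after scaling. The median before scaling was -0.00 against 0.22.

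Of 9 T cell list genes tested 4 were higher in ΔMye Tat past the threshold of 0.01 (among them Lat, Skap1 and Cd8a), a share near the 38.8% of all genes tested. The median log2 difference was 0.76 against 0.22 over all genes. Skap1 and Cd8a passed the filter only through ΔMye Tat. Lat, the adaptor phosphorylated by ZAP-70, was higher by 0.76 ± 0.19 (limma adjusted p = 0.00173), and by 0.56 after scaling, where it no longer passed (limma adjusted p = 0.0211). Cd247, the ζ chain of the T cell receptor, was at 0.86 ± 0.40, 1.05 ± 0.27 and 2.03 ± 0.61 TPM in the 3 groups and differed by 0.87 ± 0.28 (limma adjusted p = 0.0113). Lck, the kinase that activates ZAP-70, was at 1.96 ± 0.54, 3.00 ± 0.31 and 4.21 ± 0.40 TPM and differed by 0.48 ± 0.15 (limma adjusted p = 0.0124). Neither of these 2 passed the threshold of 0.01. After scaling 2 of the 9 remained past it, among them Cd8a.

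The summed level of the 27 T cell list genes in the table was 14.7 to 25.2 TPM in F/F PBS, 14.97 to 16.9 TPM in F/F Tat and 26.4 to 30.3 TPM in ΔMye Tat, with the last group above both others. With Tat 2 of the 9 rose and 5 fell by the adjusted p, where 17% of all genes tested rose and 67.6% fell. After scaling 3 rose and 1 fell. Cd28, the costimulatory receptor of T cells, was called lower, falling from 1.22 ± 0.22 to 0.21 ± 0.23 TPM (log2 difference -2.32 ± 0.33, limma adjusted p = 2.01e-06). Cd28 passed the filter only through F/F PBS, the group where it was high, so this test is a description. Cd2, an adhesion receptor, fell by 0.86 on the log2 scale (limma adjusted p = 0.000295), and did not pass after scaling (-0.26, limma adjusted p = 0.215).

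Of 13 B cell list genes tested 4 were lower in ΔMye Tat (among them Tnfrsf13c, Ly6d and Pou2af1) and 1 was higher (Cd22), against 8.87% and 38.8% of all genes tested. The median was -0.58 against 0.22 over all genes. Ly6d was at 5.82 ± 2.10, 12.1 ± 1.9 and 4.44 ± 0.68 TPM in F/F PBS, F/F Tat and ΔMye Tat. Tnfrsf13c was at 1.54 ± 0.89, 3.26 ± 0.83 and 1.12 ± 0.34 TPM in the same order. Both were thus lower in ΔMye Tat than in F/F Tat libraries where they were higher than with PBS. Tnfrsf13c passed the filter only through F/F Tat, where it was high, so its tests are a description. Cd22, a sialic acid-binding inhibitor of the B cell receptor, was at 36.6 ± 5.4, 12.1 ± 0.7 and 20.1 ± 4.7 TPM, a level above those of Cd79a and Cd79b in every group. It fell with Tat (-1.58 ± 0.12, limma adjusted p = 1.27e-10) and was higher in ΔMye Tat (0.69 ± 0.12, limma adjusted p = 7.98e-05). Tnfrsf13b, a receptor for BAFF and APRIL, fell with Tat by 0.93 on the log2 scale (limma adjusted p = 8.58e-09). Fcrla, an Fc receptor-like protein of B cells, was called lower with Tat (-1.62 ± 0.28, limma adjusted p = 2.56e-05). Fcrla passed the filter only through F/F PBS, where it was high, so its test is a description. With Tat 3 of the 13 rose and 5 fell by the adjusted p, where 17% of all genes tested rose and 67.6% fell. The 3 that rose were Cxcr5 (log2 difference 1.49, limma adjusted p = 5.76e-06), Tnfrsf13c (1.16, limma adjusted p = 0.000688) and Ly6d (1.09, limma adjusted p = 7.77e-06). After scaling 6 rose and 3 fell. The 20 B cell list genes in the table summed to 65.0 to 89.3 TPM, 49.0 to 59.9 TPM and 39.3 to 52.2 TPM.

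**Figure D5:**
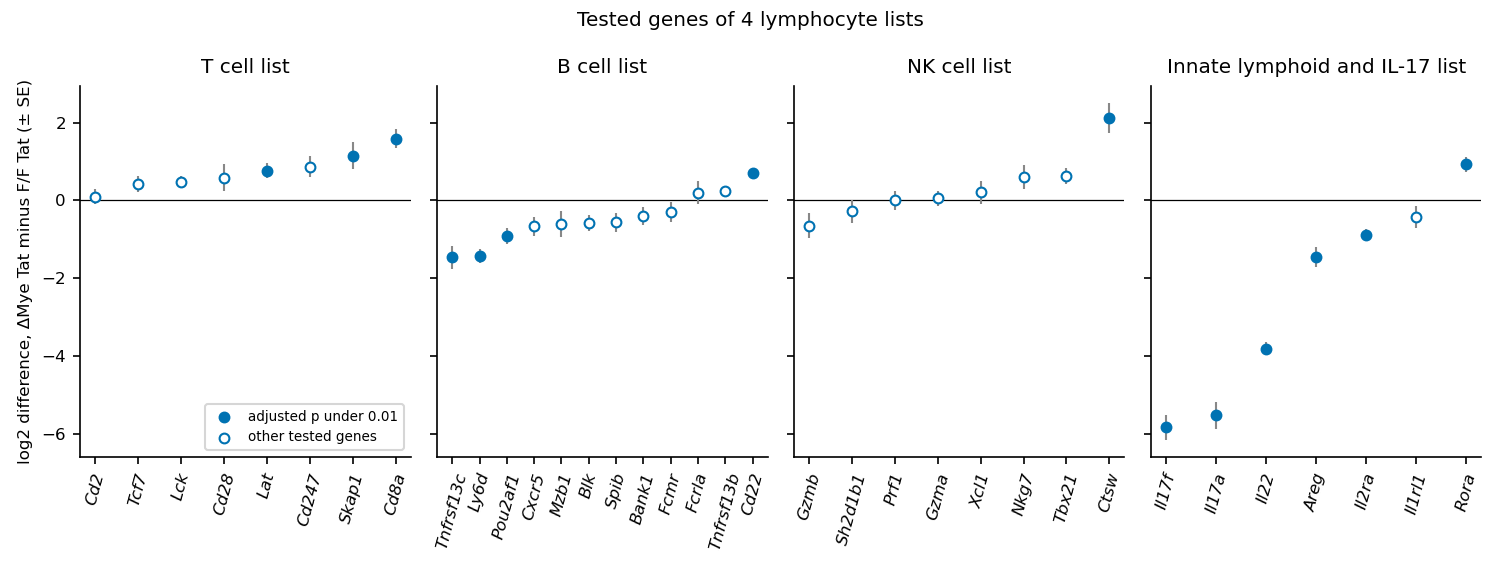
Log2 difference (TPM + 0.1), ΔMye Tat minus F/F Tat, with SE, for tested genes of the T cell, B cell, NK cell and innate lymphoid and IL-17 lists, filled where the adjusted p was under 0.01. The filled T cell genes lie above 0, the filled B cell genes other than Cd22 lie below 0, and Il17a, Il17f and Il22 lie between -5.83 and -3.82. Skap1, Cd8a and Ctsw passed the filter only through ΔMye Tat, and Tnfrsf13c, Areg, Il17a, Il17f and Il22 only through F/F Tat. Each was high in that group, so the directions of these points are a description.

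The list of innate lymphoid and IL-17-producing lymphocyte genes held the largest differences of the 4. Il17a, which T cells and innate lymphoid cells secrete, was listed at 0 in each of the 6 F/F PBS libraries, at 16.4 to 24.9 TPM in F/F Tat and at 0.08 to 0.88 TPM in ΔMye Tat. Il22 was likewise listed at 0 in F/F PBS, at 15.5 to 18.3 TPM in F/F Tat and at 0.79 to 1.64 TPM in ΔMye Tat. The genotype difference was -5.52 ± 0.34 for Il17a (limma adjusted p = 1.28e-10) and -3.82 ± 0.17 for Il22 (limma adjusted p = 8.29e-13). Both genes passed the filter only through F/F Tat, the group where they were high, so these tests are a description. Of 7 genes tested 5 were called higher with Tat, against 5.21% of all genes tested. By the adjusted p 5 were lower and 1 (Rora) higher in ΔMye Tat, against 8.87% and 38.8% of all genes tested. The 5 genes called higher with Tat reached 1 TPM only in Tat libraries, so these counts are a description. Rora, a nuclear receptor of these cells, was at 2.31 ± 0.45, 1.34 ± 0.39 and 2.61 ± 0.55 TPM, an order of the groups like that of Cd3e. Il1rl1, the IL-33 receptor, was at 1.08 ± 0.44, 1.49 ± 0.53 and 1.06 ± 0.33 TPM and differed by -0.43 ± 0.29 (limma adjusted p = 0.199).

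Signalling genes that lymphocytes share with myeloid cells were far above the lymphocyte genes in level. Of 16 listed 15 were tested, with 5 higher and 7 lower with Tat and 8 higher in ΔMye Tat past the threshold of 0.01. Of all genes tested 17% were higher and 67.6% lower with Tat, and 38.8% higher in ΔMye Tat. After scaling 11 of the 15 were higher and 4 lower with Tat, and 4 higher and 3 lower in ΔMye Tat. The shares of all genes were not counted for scaled values. Syk, the relative of ZAP-70 in B cells and myeloid cells, stood at 134 ± 9, 142 ± 6 and 228 ± 31 TPM, against a highest Zap70 level of 2.34 TPM. Syk was 0.68 ± 0.07 higher in ΔMye Tat (limma adjusted p = 1.84e-07), and Ptpn6, the phosphatase SHP-1, 0.62 ± 0.04 higher (limma adjusted p = 3.94e-10). With Tat Inpp5d, the phosphatase SHIP1, fell by 2.65 on the log2 scale (limma adjusted p = 4.33e-17), and Malt1, a scaffold of antigen receptor signalling to NF-κB, rose by 2.30 (limma adjusted p = 6.32e-16). The median log2 difference of the 15 between the genotypes was 0.22, as was that of all genes.

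Markers of other cells of the peritoneal cavity also differed between the Tat groups, beside the T cell genes. The 5 mast cell genes (among them Tpsb2, Cma1 and Cpa3) summed to 31.4 to 43.9 TPM in F/F PBS, 29.3 to 41.0 TPM in F/F Tat and 22.7 to 29.1 TPM in ΔMye Tat. The 5 mesothelial genes (among them Krt19 and Msln) summed to 2.83 to 4.75, 1.91 to 3.40 and 0.999 to 1.81 TPM. The 4 eosinophil genes (among them Ccr3 and Ear6) summed to 0.56 to 1.498, 0.72 to 1.64 and 0.26 to 0.75 TPM, and the 5 dendritic cell genes (among them Flt3 and Zbtb46) to 0.96 to 1.92, 1.23 to 1.94 and 0.88 to 1.52 TPM. The 5 neutrophil genes summed to 52.3 to 60.7, 65.4 to 77.6 and 87.1 to 105 TPM in the same order, nearly all of it S100a8, while S100a9 and Camp were near 1 or 2 TPM and Ngp was listed at 0 in all libraries. Sums of mast cell and mesothelial genes were thus lower in ΔMye Tat without overlap, where the Cd3 sum was higher, and the part of cell composition in the T cell result was not tested.

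The order of levels within each group shows how far Il7r and Klrk1 lay from the rest. In F/F PBS the order was Il7r, Cd79b, Cd79a, Thy1, Cd3g, Klrk1, Ms4a1, Cd3e, Cd3d and Zap70, and the ranges of neighbours overlapped except between Il7r and Cd79b, between Cd79a and Thy1 and between Cd3d and Zap70. In F/F Tat Klrk1 moved to the second place, below Il7r and above Cd79a, with no overlap with either. In ΔMye Tat Klrk1 kept that place, again with no overlap, and from Cd79a down to Ms4a1 the ranges of neighbours overlapped.

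The genes with a pattern most like that of a lymphocyte gene over the 17 libraries were mostly not lymphocyte genes. For Klrk1 they were Nt5c3, Phf11b, Nmi, Ifi204 and Cxcl10, with Pearson r of 0.997 to 0.998, a value set by the 3 group levels. Within groups, over deviations from the group means, the most like were Smim3, Tmsb4x, Rps6, 1110004F10Rik and Tmem60, at 0.794 to 0.844. For Cd3e the genes were Txndc17, 2610001J05Rik, Rrs1, Cfl1 and Dcun1d5 (0.820 to 0.850), and within groups Ier2, Myl6, Cox7c, S100a6 and Mien1 (0.756 to 0.827). For Cd79a they were Zfp39, Cpa3, Fcmr, H2-DMb2 and Nat8f1 (0.841 to 0.859), and within groups Ccr7, Gnl1, Sema7a, Ltb and Ccl22 (0.866 to 0.886). Fcmr is on the B cell list. The libraries share their group and their composition, genes were picked as the highest of all tested, and no test is given.

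Reads shared with other genes could have touched 1 of the 10. Of the 31-base sequences of Cd79a transcripts, 12.2% also occur in Gm32220, so its level is less certain. For the other 9 genes at most 2.16% are shared, and for Klrk1 0.0138%.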

How the data were processed

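RNA was sequenced from 17 libraries of cultured peritoneal macrophages. The deposited values are TPM, which the authors obtained with Salmon and the Ensembl gene models of GRCm38 and listed by gene symbol, with no normalization between libraries stated. TPM keep no counts, so depth and counting error are unknown. The study's edgeR test on counts was not repeated. Groups came from the labels, and 0 value columns were left unmapped.

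Rows reaching 1 TPM in 5 or more libraries (10451 of 21683) entered limma 3.58.1 under R 4.3.3 (lmFit, contrasts.fit, eBayes with trend) as log2(TPM + 0.1), in 1 fit of the 3 groups with 14 residual degrees of freedom. Adjusted p is Benjamini-Hochberg over all genes tested. A call needed an adjusted p below 0.01 and more than a 3-fold difference, the study's thresholds. The differences are on the log2(TPM + 0.1) scale and understate those of low genes. The fit was tested on simulated data. Sums, ratios and sequence matches were computed in Python 3.11.15.

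The 10 genes and the lists were chosen with earlier results of these data known. Named are the 10 genes, from each list the 2 genes highest in F/F PBS and the 2 tested genes with the largest difference with Tat in F/F cells, genes always named (Cd247, Lck, Ncr1, Hcst, Tyrobp, Il2rg and Ikbkb), and the 5 genes most like Cd3e, Cd79a and Klrk1. Genes given as examples of a count were chosen after their values were seen. Other pseudocounts, filters, scalings, fits and left-out libraries were tried. Some genes and alleles are not reported here.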

Additional observations from a re-analysis of the deposited data

Results flagged for a closer look

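Of 30 groups of values examined (10 genes in 3 groups of libraries), 2 held a library far from the others by Dixon's criterion, which chance gives in about 1 of 20 groups. Ms4a1 was at 2.70 TPM in F/F PBS library 4, while the other 5 libraries of that group lay between 1.00 and 1.55 TPM. The gap was 0.677 of the range of the group. Klrk1 was at 1.15 TPM in F/F PBS library 5, below the other 5 at 1.56 to 1.67 TPM, with a gap of 0.791 of the range.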

How the results depend on the processing

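No paired analysis was possible because the groups share no replicate number (libraries 1 to 6, 7 to 12 and 19 to 23). In the genotype comparison Cd3g, Thy1 and Klrk1 kept their direction and an adjusted p under 0.01 wherever they were tested. Cd3d and Zap70 did so too, but they passed the filter only through ΔMye Tat, where they were high. For these genes the fits with the filter support nothing, and the fit with no filter is the one given above. Differences with Tat changed sign after scaling for Thy1 (0.30), Cd79a (0.064) and Il7r (0.61), and with quantile normalization for Cd3e (0.37), Cd3d (0.32), Thy1 (0.82) and Cd79a (0.30). The genotype difference of Il7r changed sign after scaling (-0.18).

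At the study's thresholds 1 of the 10 genes was called higher and 0 lower in ΔMye Tat (limma). The count higher was 0 with a pseudocount of 0.5 or 1, a filter at 5 TPM (which leaves Cd79a, Cd79b, Il7r and Klrk1 to test) or quantile normalization. By the adjusted p alone 5 were higher and 1 (Klrk1) lower, against 38.8% and 8.87% of all genes tested. Cd3e, Cd3d and Zap70, among the 5, passed the filter only through ΔMye Tat, so nothing is read from this count. For the lymphocyte lists with Tat (9 higher, 3 lower), quantile normalization gave 16 higher and 0 lower and the adjusted p alone 14 and 12. The count lower was 1 and 0 with pseudocounts of 0.5 and 1, 6 with no filter and 0 at 5 TPM. For the lists between genotypes (2 higher, 3 lower), scaling gave 1 and 6, quantile normalization 1 and 5 and the adjusted p alone 7 and 9. The count higher was 1 and 0 with pseudocounts of 0.5 and 1, 4 with no filter and 0 at 5 TPM. Leaving out single libraries gave 1 to 2 higher, with 1 without F/F Tat 8 or 10 or ΔMye Tat 19, 21 or 22. The cause of these changes was not tested.

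Leaving out both F/F PBS libraries 3 and 4, an alternative added after seeing the data, moved the genotype difference of Ms4a1 past the threshold (adjusted p = 0.00397), as did the fit of the compared groups alone (0.00707) and leaving out ΔMye Tat 20 (0.00941). Unknown depth limits what can be said of genes near 1 TPM.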
